A study of Mus musculus with 4 samples.

Results

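The sarcomere-rich cells are a small set of barcodes that appeared when C3H10T1/2 cells were given 5-Azacitidine (5-Aza). A cell was counted as sarcomere-rich when Acta1, Actc1, Mylpf, Myl1, Tnnc2 and Tnnt3 together made 1% or more of its unique molecular identifiers (UMIs), which are counts of distinct RNA molecules. The rule was applied to barcodes with at least 5000 UMIs, at least 1500 genes and at most 20% UMIs from mitochondrial (mt-) genes. It found 102 of 5993 kept cells in H3WT 5-Aza and 170 of 7619 in H3R26C 5-Aza, together 272 of the 13612 kept cells of both 5-Aza libraries and of the 22049 kept cells of all 4 libraries. The cells were thus chosen by the measured UMIs of these 6 genes, whose high levels are a description and not a finding.

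C3H10T1/2 is a mouse line of mesenchymal progenitor cells (MPC), here transduced with lentivirus that carries tagged human H3C2 cDNA, either wild type (H3WT) or with an arginine to cysteine change in the histone tail (H3R26C). The transgene is driven by an EF1 promoter in puromycin-selected cells, so both genotypes carry it beside their own histone genes. Each genotype was given 5-Aza at 3 µM for 24 h and collected on day 28, or vehicle (DMSO), whose day of collection is not stated in the sources used here. Dissociated cells were passed through a strainer and counted on the 10X Genomics platform, with 1 library for each of the 4 conditions, so no difference below has a replicate check and no p-value is given.

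Skeletal muscle forms when MyoD family transcription factors lead progenitors to leave the cell cycle, fuse and assemble sarcomeres, in which myosin thick filaments slide along actin thin filaments anchored at Z-discs. Myogenin, encoded by Myog, marks the entry into terminal differentiation, and titin, encoded by Ttn, spans from the Z-disc to the middle of the sarcomere. 5-Aza removes DNA methylation, and its conversion of C3H10T1/2 into muscle is the classical experiment through which MyoD was found.

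Promoters of 3 of the marker genes are shown because these genes mark the cells in different ways: Myog outside the rule and an early gene of differentiation, Ttn outside the rule and found in many cells beyond the set, and Acta1 the most abundant gene of the rule. Each runs from 250 bases before to 50 bases after the gene's start as given by RefSeq on GRCm38.p6, in the direction of transcription. Capitals mark the E-box CANNTG, the sequence that MyoD family factors bind, of which CAGCTG is one form, and the MEF2-like motif, CTA and TAG with any 4 bases between them. All 3 motifs read the same on both strands.
Myog, chr1:134289754-134290053 (+): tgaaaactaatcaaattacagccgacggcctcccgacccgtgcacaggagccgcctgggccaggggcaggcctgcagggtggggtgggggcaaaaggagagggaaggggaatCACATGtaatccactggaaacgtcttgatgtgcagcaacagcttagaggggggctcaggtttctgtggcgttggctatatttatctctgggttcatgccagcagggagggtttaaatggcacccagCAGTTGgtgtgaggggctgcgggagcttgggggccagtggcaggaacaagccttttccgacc
Ttn, chr2:76982498-76982797 (-): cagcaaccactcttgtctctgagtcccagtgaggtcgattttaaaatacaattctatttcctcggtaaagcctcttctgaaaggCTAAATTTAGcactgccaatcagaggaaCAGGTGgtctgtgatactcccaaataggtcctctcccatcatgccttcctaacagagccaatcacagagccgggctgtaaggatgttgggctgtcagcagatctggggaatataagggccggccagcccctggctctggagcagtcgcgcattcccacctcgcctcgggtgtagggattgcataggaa
Acta1, chr8:123894726-123895025 (-): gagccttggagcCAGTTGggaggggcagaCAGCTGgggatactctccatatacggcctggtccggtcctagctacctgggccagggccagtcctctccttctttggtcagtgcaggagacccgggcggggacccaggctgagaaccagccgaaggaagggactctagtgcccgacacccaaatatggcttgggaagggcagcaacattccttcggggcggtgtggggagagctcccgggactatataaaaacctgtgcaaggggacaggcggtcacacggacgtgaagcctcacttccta
The Myog promoter holds 2 E-boxes, that of Acta1 holds 2, of which 1 is CAGCTG, and that of Ttn holds 1 E-box and 1 MEF2-like motif. Promoters were found for 43 of the 57 sarcomere genes, with 52 start sites. CANNTG was in 82.7% of these promoters and in 72.3% of all 32851, CAGCTG in 38.5% and 16.3%, and the MEF2-like motif in 17.3% and 3.69%. A match is a run of letters and was not tested for binding.

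Sarcomere-rich cells made 1.70% of kept H3WT 5-Aza cells (exact binomial 95% interval 1.39 to 2.06) and 2.23% of kept H3R26C 5-Aza cells (1.91 to 2.59). The ratio of the shares, H3R26C to H3WT, was 1.31 with a counting interval of 1.02 to 1.69. All intervals cover counting error only, and the spread between cultures is not measured. No DMSO cell was sarcomere-rich. With a floor of 3 counts of the total, 0 of 3710 H3WT cells allows a share of up to 0.0809%, and 0 of 4727 H3R26C cells up to 0.0635%. The highest share of UMIs from the 6 genes in any DMSO cell was 0.0474% in H3WT and 0.0377% in H3R26C.

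The edge of the set was gradual. The 3 sarcomere-rich cells nearest to the limit had 1.04%, 1.16% and 1.18% of UMIs from the 6 genes in H3WT, and the 3 nearest cells outside had 0.995%, 0.954% and 0.949%. In H3R26C the values were 1.02%, 1.03% and 1.04% inside and 0.994%, 0.989% and 0.988% outside. Between 0.5% and 1% lay 36 H3WT and 57 H3R26C cells.

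Within the set, H3WT cells were more heavily loaded with sarcomeric RNA. Their median share of UMIs from the 6 genes was 4.80% (quartiles 2.22% and 6.68%, highest 20.7%), against 3.15% in H3R26C (1.92% and 5.38%, highest 14.0%). From 1% to 2% lay 21 H3WT and 45 H3R26C cells, from 2% to 5% 32 and 76, from 5% to 10% 38 and 45, from 10% to 20% 10 and 4, and above 20% 1 and 0. The order of the genotypes depended on the limit and on the cell filter. At a limit of 5% the ratio of shares was 0.787, and with a looser filter of 1000 UMIs and 500 genes it was 0.854 (0.770 to 0.948), with shares of 8.79% and 7.51%. The value at 5% rests on 49 cells in each genotype, some of them barcodes under 1% mt- UMIs, which are described below. Without those, 20 H3WT and 32 H3R26C cells lay from 5% to 10%, 5 and 3 from 10% to 20%, and 0 and 0 above 20%. H3R26C then had more of the cells, but also more kept cells, 7370 against 5853, so the counts alone do not order the shares. The ratio of shares at 5% was not computed without those barcodes.

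The H3R26C cells of the set were also deeper. Their median was 21904 UMIs and 4319.5 genes per cell, against 15409 UMIs and 3762 genes in H3WT, while the other kept cells had 13057 and 13137 UMIs. Over 3 times the median UMIs of their library were found in 12 of 170 H3R26C cells (7.06%) and in 0 of 102 H3WT cells. Without such deep barcodes the ratio of shares was 1.22. Doublets were not removed, and their part in the result was not tested. Over all barcodes, those failing the cell filter included, the 5-Aza libraries shared 228 sequences, 4 of them with a sarcomere-rich cell. Other pairs of libraries shared 54 to 153. No barcode was sarcomere-rich in both 5-Aza libraries.

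Some of the sarcomere-rich barcodes stood apart by their mitochondrial RNA. Fewer than 1% of UMIs came from mt- genes in 32 of 102 H3WT cells (31.4%, interval 22.5 to 41.3) and in 20 of 170 H3R26C cells (11.8%, 7.34 to 17.6), but in 1.83% and 3.07% of the other kept cells. These barcodes were shallower, with medians of 7585 UMIs in H3WT and 10146 in H3R26C, against 19006.5 and 23239.5 in the rest of the set. They were richer in the 6 genes, with medians of 6.68% and 5.66%, against 3.49% and 2.89%.

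The barcodes poor in mt- UMIs were also poor in Malat1, a long RNA that stays in the nucleus. Malat1 had a median of 183 CPM (counts scaled to a total of 1000000 UMIs) in H3WT and 163 CPM in H3R26C, against 5698 and 6375 CPM in the rest of the set. It was under 1000 CPM in 29 of the 32 and 17 of the 20 barcodes, and in 15 of 70 and 9 of 150 of the rest. The very long Ttn transcript was at 2149 CPM in these H3WT barcodes against 11816 CPM in the rest, and in H3R26C at 713 against 9653 CPM. Acta1 went the other way, at 31654 against 17677 CPM in H3WT and 24517 against 15431 CPM in H3R26C. The line at 1% was drawn after these values had been seen. What these barcodes are was not tested, so values without them are given below for several of the lists compared between the genotypes. Leaving out every kept barcode under 1% mt- UMIs left 70 of 5853 H3WT cells (1.20%) and 150 of 7370 H3R26C cells (2.04%), and the ratio of shares was then 1.70 (1.27 to 2.29).

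**Figure D1:**
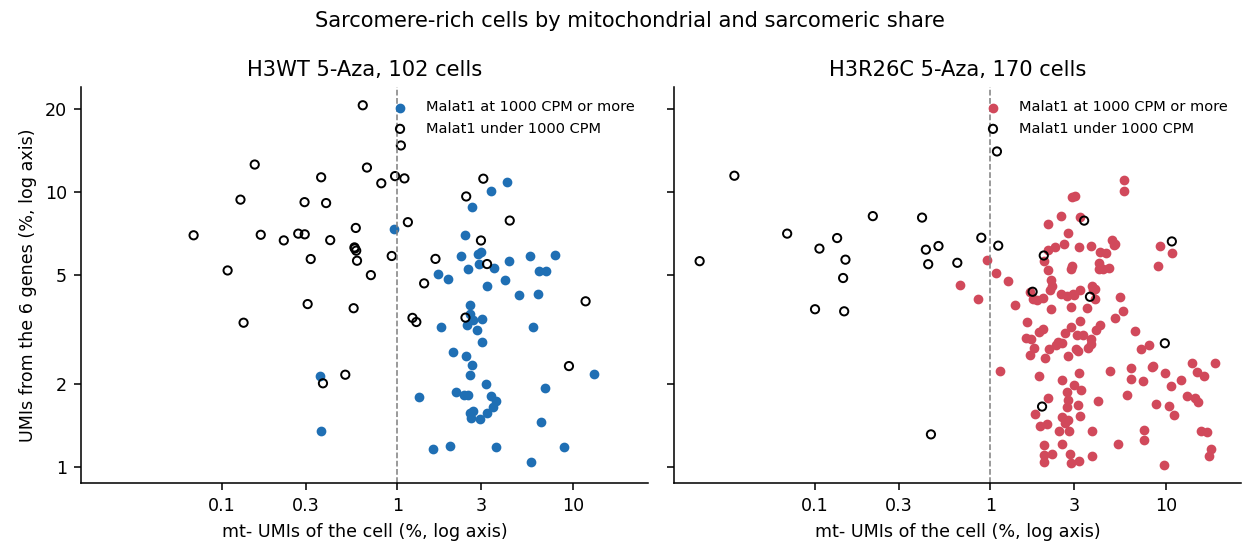
Each point is 1 sarcomere-rich cell, by its share of mt- UMIs and its share of UMIs from the 6 genes, both in percent on log axes. Left of the dashed line at 1% lie 32 H3WT and 20 H3R26C cells, and open points, with Malat1 under 1000 CPM, fill most of that side.

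The label of skeletal muscle was checked with the 2 markers outside the rule. A Myog or Ttn UMI was present in 102 of 102 H3WT and 169 of 170 H3R26C cells of the set, but also in 75.4% and 68.2% of the other kept cells. Both were present in 91 (89.2%) and 163 (95.9%) cells of the set, against 5.94% and 8.31% of the other kept cells. After every cell was thinned to 5000 UMIs, Myog was found in 80.4% of the H3WT set (71.4 to 87.6) and 90.0% of the H3R26C set (84.5 to 94.1), and before thinning in 91.2% and 96.5%. In the thinned other cells it was found in 3.55% and 6.03%, and in no DMSO cell.
Ttn was found in 87.3% and 95.9% of the thinned set, but also in 44.7% and 37.0% of the other cells, against 0.0809% and 0.0212% of DMSO cells. Free RNA from broken muscle cells can give such UMIs to cells that do not express a gene, and Acta1 likewise had a UMI in 34.9% and 37.5% of the thinned other cells. Relative to the UMIs of the 6 genes, the level in the other cells over that in the set was 1.11 for Ckm in H3WT and 0.761 in H3R26C, and 1.11 and 1.45 for Mymk. It was 2.67 and 3.10 for Myog and 6.31 and 3.83 for Ttn. The 6 genes chose the set, so the rule fixes these ratios in part, and the part of free RNA was not tested.

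Markers of other cell types were mostly low, with Acta2 as the main exception. Of the cardiac list Nppa, Nppb, Nkx2-5, Tbx5 and Myl7 had no UMI in the set, and its most abundant gene was Myh6 at 18.2 CPM in H3WT cells and 9.53 CPM in H3R26C cells. The whole cardiac list of 8 genes summed to 28.8 and 15.4 CPM, against 6.45 and 4.83 CPM in the other cells. Acta2, smooth muscle actin, was at 5419 and 3945 CPM, against 375 and 365 CPM in the other cells. Of the other markers of smooth muscle, Myh11 and Cnn1 had no UMI in the H3WT set and were each at 0.265 CPM in H3R26C. Tagln was at 19.4 and 36.3 CPM, and Smtn, whose level is not given here, completed the list. Acta2 made nearly all of that list's 5497 and 4039 CPM, against 439 and 427 CPM in the other cells. The endothelial list summed to 1.76 and 1.85 CPM and the blood list to 5.87 and 11.1 CPM. The adipocyte list summed to 381 and 87.6 CPM (249 and 139 CPM in the other cells), of which Car3, also a gene of slow muscle, made 355 and 57.2 CPM, and the fat cell hormone gene Adipoq was at 1.17 and 3.18 CPM. The osteoblast list was at 12.3 and 20.9 CPM, led by Runx2 in H3WT at 11.7 CPM, and the chondrocyte list at 79.9 and 91.9 CPM, led by Sox9 at 76.3 CPM in H3WT.

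**Figure D2:**
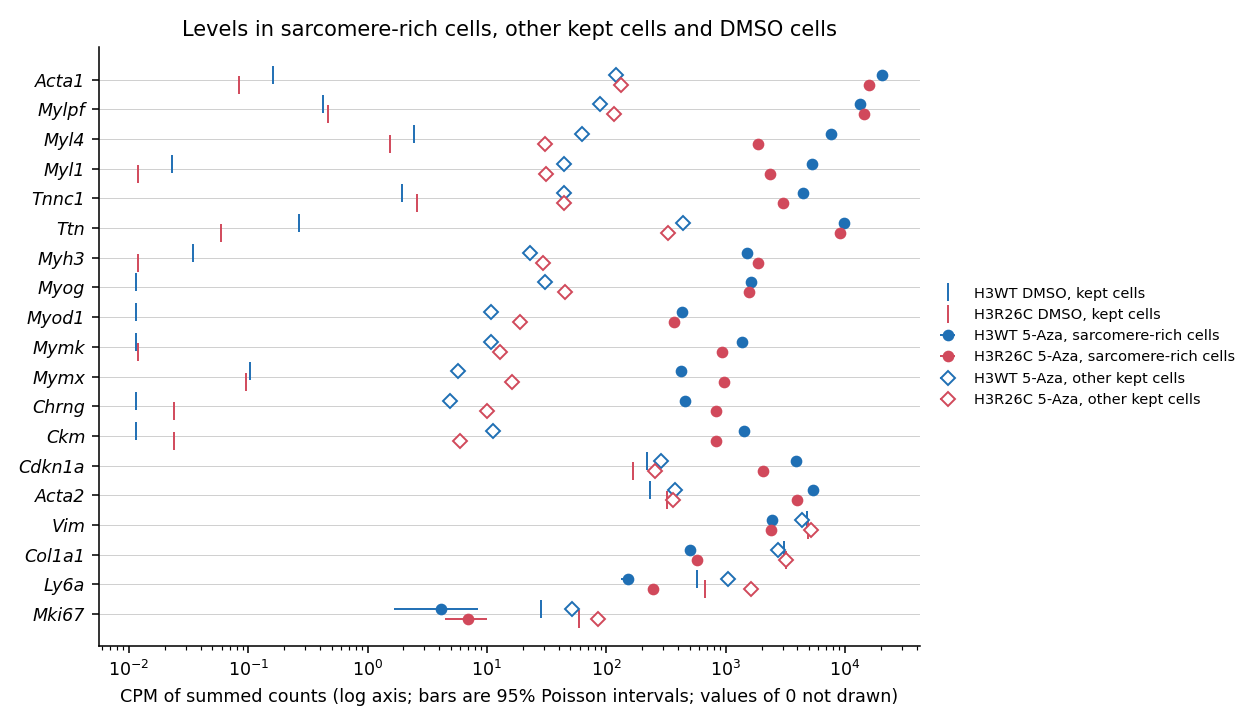
CPM of summed counts on a log axis for 19 genes in sarcomere-rich cells (filled circles), other kept 5-Aza cells (open diamonds) and DMSO cells (ticks) of H3WT and H3R26C, with exact Poisson 95% intervals. Sarcomeric, regulator, fusion and receptor genes lie furthest right in the sarcomere-rich cells of both genotypes, and Col1a1, Ly6a and Mki67 lie to the left of the other cells.

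The genes of the rule differed in how evenly they were used. Acta1, skeletal alpha-actin, ran from 243 to 78856 CPM per cell in the H3WT set (median 16715) and from 1911 to 55993 CPM in the H3R26C set (median 13451). Summed over cells it was at 20515 and 15967 CPM, a ratio of H3R26C to H3WT of 0.778 (0.768 to 0.789). Without the barcodes under 1% mt- UMIs the medians were 12483 and 12425 CPM. The fast regulatory light chain gene Mylpf was at 13403 and 14570 CPM, so the genotypes lay close together in this gene and apart in others. Myl1, the fast essential light chain, was at 5253 and 2360 CPM, a ratio of 0.449 (0.436 to 0.463), with medians of 5403 and 1328 CPM per cell. With those barcodes left out the ratio was 0.522 and the medians 3537 and 939 CPM. The cardiac actin gene Actc1, which developing skeletal muscle also uses, was at 1530 and 828 CPM, and it had a UMI in 88 of 102 and 128 of 170 cells. The troponin genes Tnnc2 (3940 and 2611 CPM) and Tnnt3 (3157 and 2478 CPM) were lower in H3R26C by less than 2-fold.

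For comparisons over genes, counts were summed over the cells of a group and scaled to CPM, ratios were taken after adding 1 CPM, and genes with 5 CPM or more in one of the groups were counted when past 2-fold. Against the other kept cells, 622 of 10225 genes (6.08%) were at least 2-fold higher in the set in both libraries and 1778 (17.4%) at least 2-fold lower. Scaling by the total lowers every other gene where muscle genes take much of the RNA, and the median gene lay at -0.39 in H3WT and -0.41 in H3R26C on the log2 scale. With median-of-ratios scaling 918 genes were higher and 1054 lower. Since the rule chose cells by muscle genes of the same libraries, these contrasts describe the set and carry no test.

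Between the genotypes, 533 of 9928 genes (5.37%) were at least 2-fold higher in the H3R26C set than in the H3WT set and 518 (5.22%) at least 2-fold lower. With median-of-ratios scaling 60.9% of the calls were higher and with the mean of per-cell CPM 61.1%, against 50.7% here. Each set is 1 library of few cells, and the median over all genes was -0.09 on the log2 scale.

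Sarcomere genes outside the rule were high along with those of the rule. Of the 46 measured, 45 were past 2-fold higher in both libraries, beside 6.08% of all genes, the exception being the broadly used tropomyosin gene Tpm3. Their median log2 ratio was 4.92 in H3WT and 4.59 in H3R26C. Without the 6 genes of the rule, the 51 sarcomere genes together gave 54868 CPM in the H3WT set and 35717 CPM in the H3R26C set, against 2694 and 2069 CPM in the other cells and 1636 and 1693 CPM in DMSO cells. In DMSO cells Acta1 had 14 and 7 counts in all, Ttn 23 and 5, and Myog 1 and 0. Among the 15 genes with the largest ratios were the slow or developmental troponins Tnnc1 (4488 CPM in H3WT and 3040 CPM in H3R26C) and Tnni1 (1651 and 1833 CPM), the fast troponin I gene Tnni2 (2637 and 1879 CPM), the myosin binding protein gene Mybph (1398 and 632 CPM) and Itgb1bp2, which encodes the chaperone melusin (265 and 193 CPM).

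Embryonic myosin led the myosins of the set. Shares of a gene in its family are given here per kilobase of exon, and also as plain shares of UMIs where that turned the order or moved the share by over 1.5 times. UMIs count molecules whatever their length, so the plain share is that of molecules. A share per kilobase gives more weight to genes with little exon sequence. Embryonic heavy chain Myh3 made 65.9% of 6 sarcomeric myosin heavy chain genes in H3WT and 69.2% in H3R26C. The adult fast gene Myh1 made 26.3% and 25.4%, the perinatal gene Myh8 0.505% and 0.530% (0.948% and 0.999% of UMIs), the adult fast gene Myh4 2.70% and 1.51%, and the adult fast gene Myh2 0.811% and 0.428%. The slow gene Myh7 made 3.79% and 2.89% and came from few cells, since 5 cells held 87.1% of its UMIs in H3WT and 63.2% in H3R26C. Developmental and adult isoforms were thus both present, with Myh3 ahead of Myh1 in both genotypes.
Skeletal Acta1 made 93.4% of striated actin in H3WT and 95.3% in H3R26C. Slow troponin C, Tnnc1, made 46.7% and 47.2% of troponin C per kilobase but 53.3% and 53.8% of its UMIs, and the fast gene Tnnt3 made most of troponin T. Among the filament families the genotypes lay furthest apart in the essential light chains and troponin I. The atrial and embryonic light chain gene Myl4 made 39.5% of essential light chains in H3WT and 26.3% in H3R26C, with Myl1 making nearly all of the rest. Of the UMIs of these light chains Myl4 made 59.4% and 44.4%, so that in H3WT it led Myl1 by UMIs and not per kilobase, while it was lower in H3R26C by both. Slow troponin I, Tnni1, made 20.7% and 28.9% of troponin I per kilobase and 38.5% and 49.4% of its UMIs.

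For titin the sum over cells and the median cell gave opposite orders. Summed over cells it was at 9853 CPM in the H3WT set and 9126 CPM in the H3R26C set, a ratio of 0.926 (0.909 to 0.943). The median was 1126 CPM per cell in H3WT (lowest 0, highest 102286) and 3107 CPM in H3R26C (lowest 0, highest 125591). With each cell given equal weight, as the mean of per-cell CPM, it was higher in H3R26C, by 0.52 on the log2 scale in place of -0.11. The medians lay together once the barcodes under 1% mt- UMIs were left out, with 3650 CPM per H3WT cell and 3612 CPM per H3R26C cell. The sum rested on few cells, with 5 cells holding 50.4% of the Ttn UMIs in H3WT and 25.7% in H3R26C. The cell highest in Ttn had 13.2% mt- UMIs and 37861 CPM of Malat1 in H3WT, and 17.6% and 81728 CPM in H3R26C. The medians of the set were 2.45% and 3457 CPM in H3WT and 2.89% and 5641 CPM in H3R26C. Not every cell high in Ttn was rich in mt- UMIs, since 1 H3WT cell with 42818 CPM of Ttn had 0.362%. The Malat1 of that cell was high, at 265472 CPM. What sets the cells high in Ttn apart was not tested. Neb, the gene of the large thin filament ruler nebulin, also had opposite orders of sum and median, with 1664 and 1135 CPM in sum but medians of 198 and 425 CPM per cell. Without the barcodes under 1% mt- UMIs its medians were 348 and 537 CPM.

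Myogenin, MyoD and MEF2C were among the regulators that were high in the set. Of 15 measured regulator genes 7 were past 2-fold higher than in the other cells in both libraries and 1 lower, beside 6.08% and 17.4% of all genes. The lower one was Pax3, an early factor of the muscle lineage, at 1.17 and 4.24 CPM against 9.67 and 23.1 CPM. Myog was at 1620 CPM in H3WT cells and 1568 CPM in H3R26C cells, against 30.6 and 45.4 CPM in the other cells. Per cell it ran from 0 to 6156 CPM in H3WT (median 896) and from 0 to 6706 CPM in H3R26C (median 1064). Myod1, the founding factor of the family, was at 428 and 371 CPM, and Mef2c, a partner of these factors, at 418 and 304 CPM. Myf5, which specifies muscle progenitors, and Myf6, a late factor of muscle fibres, had no UMI in either set, and Pax7, a marker of satellite cells, had none in H3WT and was at 0.53 CPM in H3R26C. Between the genotypes the ratio of Myog was 0.968 (0.925 to 1.01), and over 14 regulator genes the median log2 ratio of H3R26C to H3WT was -0.19, with 0 past 2-fold higher and 1 lower, Id1, an inhibitor of MyoD family factors, beside 5.37% and 5.22% of all genes.

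Fusion genes were present, and Mymx was past 2-fold higher in H3R26C. Of 14 fusion and adhesion genes 8 were past 2-fold higher in the set than in the other cells, and 1 lower, beside 6.08% and 17.4% of all genes. The lower one was the adhesion gene Vcam1, at 15.9 and 23.6 CPM against 87.0 and 110 CPM. Mymk encodes myomaker, a membrane protein needed on both fusing cells, and was at 1379 CPM in H3WT cells and 941 CPM in H3R26C cells, against 10.9 and 12.8 CPM in the other cells. Mymx encodes myomixer, the small protein that completes fusion, and was at 422 and 962 CPM, a ratio of 2.28 (2.10 to 2.47). Its median was 242 CPM per cell in H3WT (lowest 0, highest 1818) and 681 CPM in H3R26C (lowest 0, highest 3884), so the ranges overlapped widely. In the other cells Mymx was at 5.76 and 16.3 CPM, a ratio of 2.83. Over the list 1 gene was past 2-fold higher in H3R26C, Mymx, and 2 lower, Cav3 and Jam3, beside 5.37% and 5.22% of all genes, with a median of 0.27, which was -0.13 in the bin of 1% to 2%.

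RNA for the acetylcholine receptor of the neuromuscular junction was that of its fetal form. Of 11 receptor and synapse genes 10 were past 2-fold higher in the set than in the other cells, and 1 lower, beside 6.08% and 17.4% of all genes. The lower one was Agrn, which encodes agrin, at 8.22 and 7.94 CPM against 19.1 and 18.1 CPM. Chrng, the fetal gamma subunit, made 98.1% of Chrng and the adult subunit Chrne per kilobase of exon in H3WT and 99.2% in H3R26C. Chrng was at 459 CPM in H3WT cells and 836 CPM in H3R26C cells, a ratio of 1.82 (1.68 to 1.97), with medians of 146 and 659 CPM per cell. Other subunits were Chrna1 at 401 and 781 CPM, Chrnd at 120 and 188 CPM and Chrnb1 at 72.2 and 90.3 CPM, none of them past 2-fold, and Chrne was at 3.52 and 2.65 CPM. After thinning, 52.9% of the H3WT set and 84.1% of the H3R26C set had a Chrng UMI, against 1.90% and 2.91% of the other cells.
Over the list, which summed to 1230 and 2073 CPM, the median log2 ratio was 0.32, and 7 of 11 genes lay above 0. The genes past 2-fold were Ache, acetylcholinesterase, at 9.98 and 35.2 CPM, and Colq, its collagen anchor, at 32.9 and 12.2 CPM, beside 5.37% of all genes higher and 5.22% lower. Without the barcodes under 1% mt- UMIs the list's median was 0.18 and the Chrng ratio 1.68.

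RNA of genes for calcium release and uptake was also high in the set. Of 18 measured genes 17 were past 2-fold higher in the set, beside 6.08% of all genes, among them the release channel Ryr1 (303 and 268 CPM), its voltage sensor Cacna1s (59.3 and 54.3 CPM) and the calcium pump Atp2a1 (661 and 666 CPM). Per kilobase of exon Atp2a1 made 67.4% of Atp2a1 and the broadly used pump gene Atp2a2 in H3WT and 76.4% in H3R26C. The calcium binding protein genes Hrc (248 and 429 CPM) and Casq2 (208 and 288 CPM) were higher in H3R26C by less than 2-fold, and Jsrp1, a protein of the junctional reticulum, was at 318 and 433 CPM. Over 19 genes the median log2 ratio of H3R26C to H3WT was -0.13, and 0 were past 2-fold higher and 3 lower, Jph1, Pln and Pvalb, beside 5.22% of all genes. Without the barcodes under 1% mt- UMIs Pvalb was no longer past 2-fold. The median was 0.17 in the bin of 5% to 10%.

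Muscle isoforms made a smaller part of 3 enzyme families in H3R26C than in H3WT. The pump gene Atp2a1 above went the other way, at 76.4% of its pair in H3R26C against 67.4% in H3WT. Muscle creatine kinase, Ckm, was at 1436 CPM in H3WT cells and 837 CPM in H3R26C cells, against 11.4 and 5.95 CPM in the other cells. Brain creatine kinase, Ckb, was at 39.9 and 244 CPM, a ratio of 6.1 (4.76 to 7.92). After thinning a Ckb UMI was found in 7.84% of the H3WT set and 35.9% of the H3R26C set, beside 6.48% and 9.33% of the other cells. In the other cells the Ckb ratio was 1.21. Per kilobase of exon Ckm made 97.3% of the pair in the H3WT set and 77.3% in the H3R26C set. The muscle enolase Eno3 made 94.1% and 90.5% of its pair with Eno1, and the heart and muscle subunit Cox6a2 of the respiratory chain made 69.7% and 53.9% of its pair with Cox6a1. The oxygen store gene Mb was at 1257 and 573 CPM. Over 25 energy genes 3 were past 2-fold higher in H3R26C (Ckb, Pgam1 and Cox7a1) and 5 lower (Ckmt2, Pygm, Pdk4, Mb and Fabp3), beside 5.37% and 5.22% of all genes, with a median of -0.21. Without the barcodes under 1% mt- UMIs Mb and Fabp3 were no longer past 2-fold, 4 genes were higher and 3 lower, and the median was -0.06. In the bin of 1% to 2% it was 0.25.

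**Figure D3:**
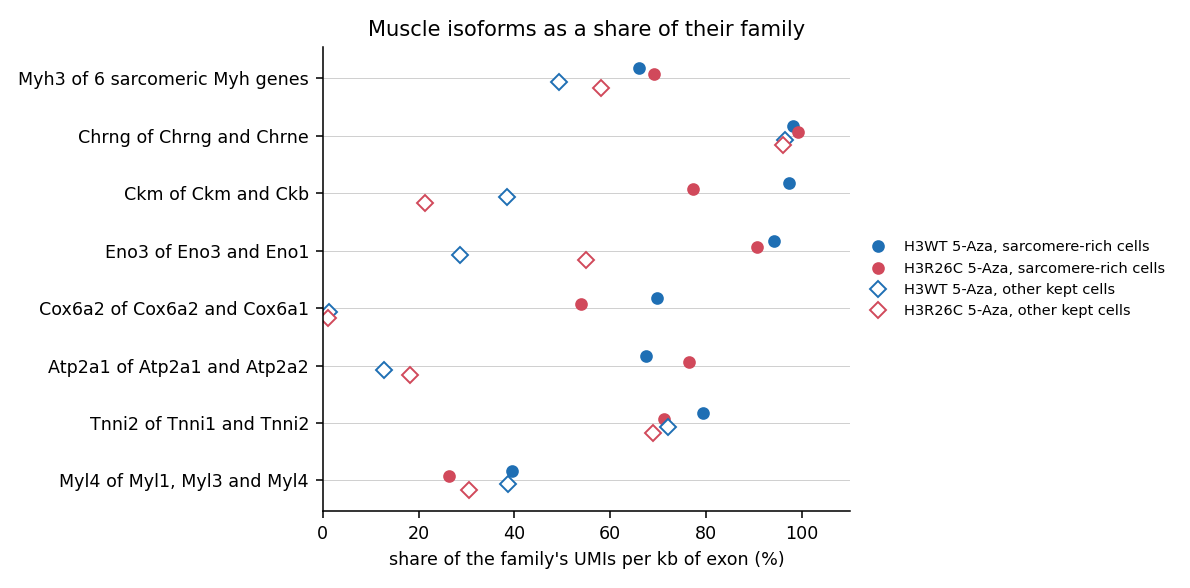
Share of a gene in its family, in percent of UMIs per kilobase of exon, for sarcomere-rich cells (circles) and other kept cells (diamonds) of both 5-Aza libraries. Muscle isoforms of creatine kinase, enolase, COX6A and SERCA make far more of their family in sarcomere-rich than in other cells, and Ckm lies at 97.3% in H3WT and 77.3% in H3R26C. Plain shares of UMIs, which count molecules, differ from these. For Myl4 they are 59.4% in H3WT and 44.4% in H3R26C sarcomere-rich cells.

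Cell cycle and matrix RNA were low in the set. Of 19 proliferation genes 17 were past 2-fold lower than in the other cells in both libraries, beside 17.4% of all genes. Between the genotypes 6 of 15 were past 2-fold higher in H3R26C and 0 lower, beside 5.37% and 5.22% of all genes. Their median log2 ratio was 0.73, beside 0.72 in the other cells, and 0.22 in the bin of 5% to 10%. Without the barcodes under 1% mt- UMIs 5 of 14 were higher and 0 lower, with a median of 0.71. Mki67, a marker of cycling cells, was at 4.11 CPM in H3WT cells and 6.88 CPM in H3R26C cells, against 51.7 and 85.8 CPM in the other cells, and Top2a, the topoisomerase of dividing cells, was at 3.52 and 22.2 against 89.6 and 177 CPM. Cdkn1a, the cyclin kinase inhibitor p21 that myoblasts switch on as they differentiate, was at 3879 CPM in the H3WT set and 2046 CPM in the H3R26C set, against 286 and 256 CPM in the other cells. Of 24 progenitor and matrix genes 19 were past 2-fold lower, beside the same 17.4%, among them Col1a1 at 500 and 575 CPM against 2742 and 3191 CPM, and the progenitor marker Ly6a at 151 and 248 CPM against 1052 and 1629 CPM. After thinning, Ly6a had a UMI in 26.5% and 31.8% of the set and in 71.8% and 88.8% of the other cells. The other genes with the smallest ratios were the mitosis genes Cenpf and Birc5, the Wnt modulator gene Sfrp2, the collagen genes Col15a1 and Col16a1, Sned1 and Lgals9. Between the genotypes 3 of 24 progenitor and matrix genes were past 2-fold higher in H3R26C and 1 lower, beside 5.37% and 5.22% of all genes, with a median of 0.11. Without the barcodes under 1% mt- UMIs 2 were higher and 2 lower, and the median was -0.06.

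Interferon-stimulated genes were low in the set and still ordered by genotype. Of 14 measured genes 13 were past 2-fold lower than in the other cells, where 17.4% of all genes were, and the list summed to 334 CPM in the H3WT set and 1266 CPM in the H3R26C set, against 1452 and 4285 CPM in the other cells. Between the genotypes 10 of 13 genes were past 2-fold higher in H3R26C and 0 lower, beside 5.37% and 5.22% of all genes, with a median log2 ratio of 1.76, beside 1.90 in the other cells. Isg15, a ubiquitin-like modifier, was at 15.3 and 109 CPM in the set and at 66.2 and 372 CPM in the other cells.

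Variation within the set ran along the load of sarcomeric RNA. From the bin of 1% to 2% to that of 5% to 10%, Acta1 went from 6598 to 28270 CPM in H3WT and from 5511 to 27455 CPM in H3R26C, which the rule fixes in part. Ckm, outside the rule, went from 416 to 1557 CPM and from 274 to 1484 CPM. The imprinted noncoding gene H19 went from 911 to 1990 CPM and from 2258 to 4225 CPM. The median cell went the same way in each of these genes.
For Ttn the sum and the median cell went opposite ways. The sum went from 18892 to 6666 CPM in H3WT and from 14764 to 4860 CPM in H3R26C, but in the bin of 1% to 2% 5 cells held 96.2% and 64.9% of its UMIs. The median cell went from 366 to 1132 CPM in H3WT and from 1684 to 3905 CPM in H3R26C, and was at 3361 and 3213 CPM in the bin of 2% to 5%. Among barcodes with 1% mt- UMIs or more the median went from 737 to 8573 CPM in H3WT and from 1820 to 4827 CPM in H3R26C.
Summed over cells, Myog went from 1278 to 2017 CPM in H3WT and from 1756 to 1475 CPM in H3R26C, while its median cell went from 732 to 1394 CPM and from 671 to 1071 CPM. In the bin of 2% to 5% that median was at 594 and 1178 CPM, so it did not rise from bin to bin. Progenitor genes were lowest where the load was highest, with Col1a1 going from 1180 to 62.0 CPM and from 897 to 201 CPM, Ly6a from 438 to 46.1 CPM and from 595 to 52.5 CPM, and the interferon list from 580 to 121 CPM and from 2091 to 643 CPM. The bins above 10% held fewer than 20 cells in each genotype and are not described. Barcodes under 1% mt- UMIs made 4.76%, 21.9% and 47.4% of the bins of 1% to 2%, 2% to 5% and 5% to 10% in H3WT and 2.22%, 6.58% and 28.9% in H3R26C, and their part in these trends was not tested beyond the values without them.

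**Figure D4:**
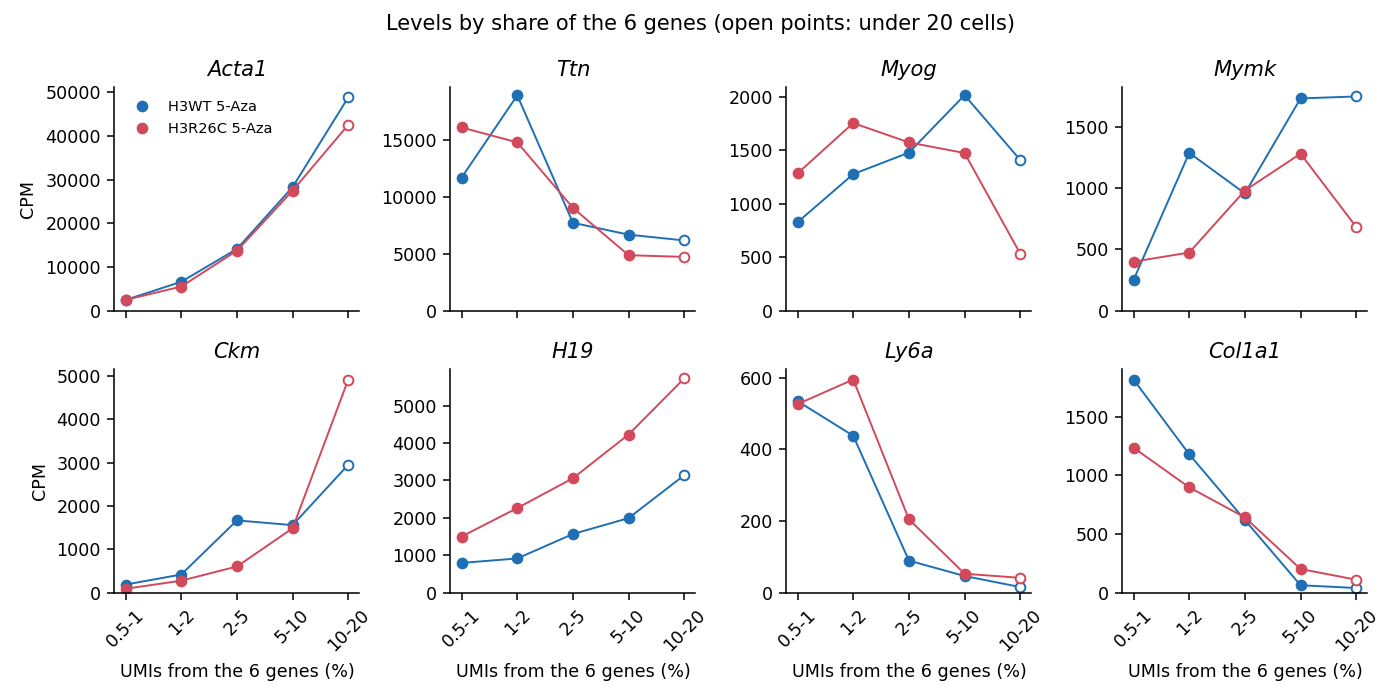
CPM of summed counts of 8 genes in cells binned by their share of UMIs from the 6 genes, in percent, for H3WT and H3R26C 5-Aza. Open points mark bins of under 20 cells. Ly6a and Col1a1 are lower and Acta1, Ckm and H19 higher in the bin of 5% to 10% than in that of 1% to 2%, in both genotypes. The sum of Ttn is also lower there, but rests on few cells, and its median cell is higher, at 1132 against 366 CPM in H3WT and 3905 against 1684 CPM in H3R26C.

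Cells with Myog RNA but under 1% of UMIs from the 6 genes were set beside the sarcomere-rich cells. There were 405 in H3WT and 873 in H3R26C, with a median of 0.0386% and 0.0327% of UMIs from the 6 genes, against 0.0180% and 0.0207% in all other kept cells. Summed over cells they had 4271 and 1725 CPM of Ttn, of which 5 cells held 31.4% and 36.1%, and the median cell had 133 and 86.6 CPM, against 91.6 and 74.1 CPM in cells without a Myog UMI. Their Acta1 was at 394 and 354 CPM. Their Mki67 was at 70.0 and 101 CPM, against 4.11 and 6.88 CPM in the sarcomere-rich cells and 50.3 and 83.5 CPM in cells without a Myog UMI, and in H3WT 61 of the 405 cells had a Mki67 UMI, with 32.6% of the UMIs in 5 cells. Their Cdkn1a was at 576 and 451 CPM, against 263 and 228 CPM in cells without a Myog UMI. Other cells without a Myog UMI had 139 and 121 CPM of Ttn in sum and 100 and 99.3 CPM of Acta1. The 36 H3WT and 57 H3R26C cells with 0.5% to 1% of UMIs from the 6 genes had 24550 and 26934 CPM from the sarcomere genes outside the rule, and 827 and 1285 CPM of Myog. These sums rested on few cells: of Ttn, 5 cells held 82.8% and 53.3% of the UMIs, with medians of 235 and 336 CPM, and the median of Myog was 124 and 558 CPM.

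Sarcomere genes outside the rule were on balance lower in the H3R26C set. Of 46 genes 0 were past 2-fold higher and 12 lower (beside 5.22% of all genes), 7 lay above 0, and the median log2 ratio was -0.59, beside -0.22 for the same genes in the other cells. The lowest ratio among them was that of Myl4, at 7680 CPM in H3WT cells and 1887 CPM in H3R26C cells (0.246, interval 0.239 to 0.253), with medians of 6453 and 633 CPM per cell. In the other cells the Myl4 ratio was 0.494. Also past 2-fold were Mylk4, a myosin light chain kinase gene (57.0 and 13.8 CPM), the myosin binding protein gene Mybpc1 (32.3 and 9.27 CPM), the M-band gene Myom3 (116 and 42.1 CPM), the actin nucleator Lmod3 (293 and 113 CPM) and the Z-disc gene Myoz2 (139 and 51.1 CPM).
These 6 genes remained past 2-fold without the barcodes under 1% mt- UMIs, and the other 6 (Mybph, Tpm1, Ldb3, Csrp3, Cryab and Smpx) did not. Among these, Cryab, a small heat shock protein gene, was at 3741 and 1660 CPM with them and at 2870 and 1594 CPM without. The median of the list was then -0.49. In cells matched for load it was -0.57 from 1% to 2%, -0.47 from 2% to 5% and -0.42 from 5% to 10%, so it kept its sign in each bin.

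**Figure D5:**
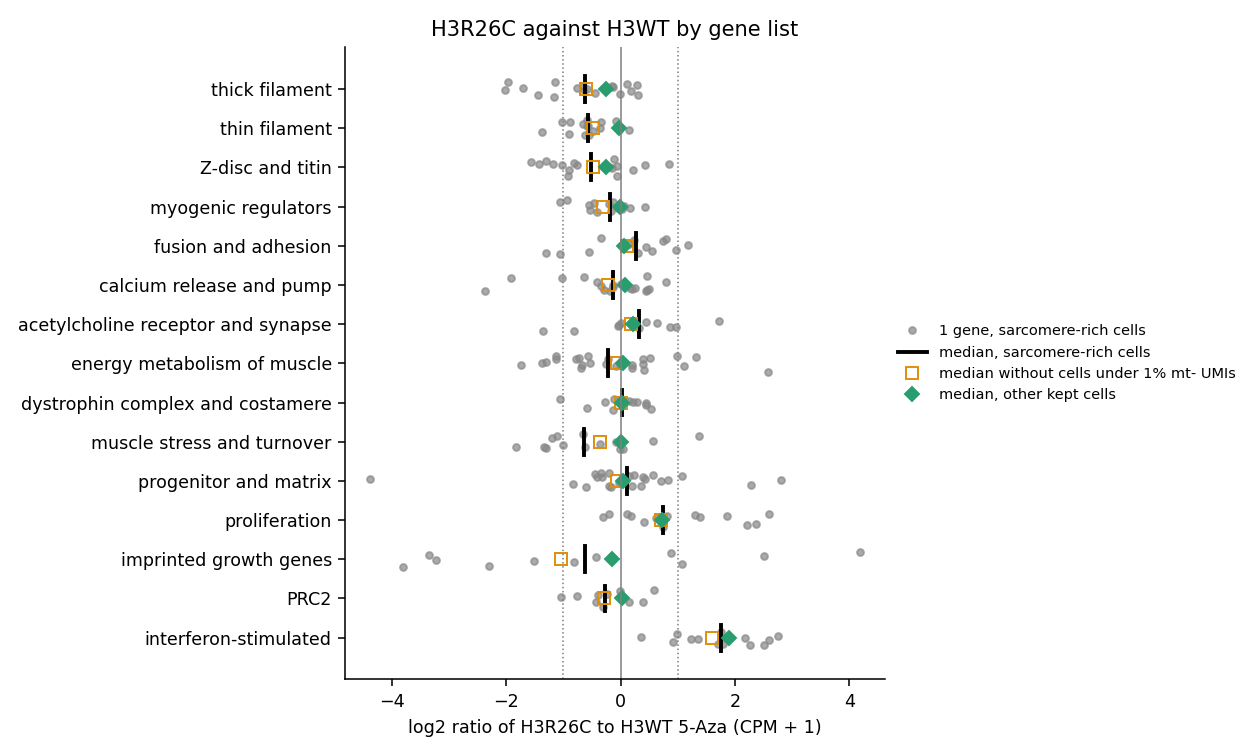
Log2 ratio of H3R26C to H3WT 5-Aza after adding 1 CPM, for the genes of 15 lists. Grey points are genes in sarcomere-rich cells, black lines their medians, open squares the medians without barcodes under 1% mt- UMIs, green diamonds the medians in other kept cells, and dotted lines 2-fold. The filament lists hold the genes of the rule. Filament and Z-disc medians lie left of 0 and the interferon median at 1.76.

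Stress and turnover genes of muscle were on balance lower in the H3R26C set. Of 14 genes 6 were past 2-fold lower in H3R26C and 1 higher, beside 5.22% and 5.37% of all genes. Among the lower ones were the chaperone gene Hspb8 (1039 and 409 CPM), Fhl1 (376 and 105 CPM) and the atrophy ubiquitin ligase Trim63 (53.4 and 24.1 CPM). Ankrd1, an ankyrin repeat protein of the titin spring that responds to stretch, was the only one past 2-fold higher, at 597 and 1551 CPM, a ratio of 2.60 (2.43 to 2.78). Its median was 339 CPM per cell in H3WT and 1166 CPM in H3R26C. In the other cells it was at 18.9 and 35.5 CPM. The median of the list was -0.64, and -0.36 without the barcodes under 1% mt- UMIs, where Ankrd23 was no longer past 2-fold lower.

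Of 12 measured imprinted growth genes, 3 were past 2-fold higher in H3R26C and 5 lower, beside 5.37% and 5.22% of all genes, with a median of -0.63. Without the barcodes under 1% mt- UMIs 3 of 13 were higher and 7 lower, with Igf2 and Mirg added, and the median was -1.04. In cells matched for load the median changed sign, from -1.20 in the bin of 1% to 2% to 0.43 from 2% to 5% and -0.41 from 5% to 10%. Peg3 was at 27.6 and 162 CPM, and Mest had 0 counts in H3WT and 65 in H3R26C, which is at least 9.77-fold higher when a floor of 3 counts is set for the H3WT cells together. The genes of the Dlk1 to Meg3 region of chromosome 12 were lower, with Meg3 at 92.2 and 8.21 CPM and Rian at 53.4 and 2.91 CPM. These came from few cells, since Meg3 had a UMI in 19 H3WT and 10 H3R26C cells and Rian in 18 and 8. Dlk1 was at 125 and 12.4 CPM, but 5 cells held 96.7% of its UMIs in H3WT and 100% in H3R26C, and in the bin of 2% to 5% its log2 ratio was 1.15 in place of -3.23. H19 was at 1751 and 3230 CPM and Igf2, the growth factor gene of the same cluster, at 586 and 331 CPM.

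The 10 genes highest in H3R26C by ratio included several that were also higher there in the other cells. Cxcl13, a chemokine gene, stood out by its level, at 96.3 CPM in the H3WT set and 929 CPM in the H3R26C set (9.65, interval 8.25 to 11.4), against 1.59 and 11.5 CPM in the other cells, so that it was concentrated in the set in both genotypes. After thinning, a Cxcl13 UMI was found in 23.5% of the H3WT set and 71.8% of the H3R26C set, and in 0.492% and 3.22% of the other cells. Cd200, a surface protein gene of immune inhibition, was at 2.94 and 88.7 CPM and was found in 3 and 91 cells. Gal, the neuropeptide galanin, had 0 and 240 counts, at least 36.1-fold higher against the same floor, but came from 15 cells, of which 5 held 86.2%. Alox5ap (0.587 and 77.3 CPM), Hopx (2.94 and 52.2 CPM), Ly6e (28.8 and 254 CPM), Car9 (7.05 and 87.6 CPM), Ndufa4l2 (9.40 and 114 CPM), Nptx1 (5.87 and 64.9 CPM) and Bricd5 (1.76 and 53.2 CPM) completed the group. The H3WT values of Alox5ap, Bricd5, Cd200 and Hopx rest on 1, 3, 5 and 5 counts, so that the ratio of Alox5ap, 132, had an interval from 23.4 to 5217 and that of Bricd5, 30.2, from 10.2 to 148.
Spp1, osteopontin, was at 324 and 2253 CPM, and at 858 and 4998 CPM in the other cells.

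The 10 genes lowest in H3R26C held matrix genes, the imprinted genes above and genes carried by few cells. Eln, elastin, was at 125 and 5.03 CPM, with 82.5% of its H3WT UMIs in 5 cells, and at 563 and 68.2 CPM in the other cells. The early response gene Fos was at 115 and 12.2 CPM, beside 501 and 45.9 CPM in the other cells, and the matrix genes Abi3bp (85.7 and 11.1 CPM) and Mfap5 (51.7 and 8.47 CPM) were lower too. Ctrb1, a pancreatic enzyme gene, was at 154 and 3.71 CPM, with 91.3% of its H3WT UMIs in 5 cells. Car3 was at 355 and 57.2 CPM, with 75.4% in 5 cells, and the replication-dependent histone gene Hist1h3g at 65.8 and 11.6 CPM.
The contrast within the set was shared in part with the other cells. Of 439 genes higher in the H3R26C set and measured in the other cells, 168 (38.3%) were also past 2-fold higher there, where 4.24% of all genes were, and of 387 lower genes 101 (26.1%), where 2.69% were.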

How the data were processed

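Droplet libraries of 4 conditions were used, 1 per condition. The authors counted UMIs with Cell Ranger (6.1.0 in the file headers; Cell Ranger 6 and Seurat 4 in the submitters' notes) on mm10 and deposited raw counts per gene and barcode, without normalization. The cell filter of the study's methods (5000 UMIs, 1500 genes, 20% mt-) was applied, which kept 84060490 to 110712425 UMIs per library. The sets held 1702786 UMIs in H3WT and 3777030 in H3R26C. No doublets were removed.

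Counts were summed over cells and scaled to CPM; ratios used a pseudocount of 1 CPM, genes needed 5 CPM in either group, and 2-fold is a rule of size. Intervals are 95% exact Poisson, Clopper-Pearson or conditional binomial, and cover counting error only. Shares of cells with a UMI were taken after thinning to 5000 UMIs. The floor of a count of 0 is 3 counts, for a group as a whole. Exon lengths and positions came from GENCODE M21 on GRCm38 (99.8% of 32285 genes matched) and promoters from RefSeq. Python 3.11.15, numpy 2.4.6, scipy 1.17.1, pandas 2.3.3 and matplotlib 3.10.9 were used.

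The rule, the markers and 23 gene lists (323 of 325 genes found) were chosen with earlier results of these data known. Beside list genes, the text names the 15 genes outside the rule with the largest and the 10 with the smallest ratio of sarcomere-rich to other cells, taking the library nearer to 0 and at least 50 CPM, and the 10 largest and 10 smallest ratios of H3R26C to H3WT. Isg15 and the other genes named within a list were picked for their role. The comparison without barcodes under 1% mt- UMIs and that within the 2% to 5% bin were chosen after seeing the data. Summed counts were also simulated by Poisson draws from the H3WT set at the depths of both sets, with no spread between cells or cultures. In these, 50 of 50 genes changed 2.5-fold and 48 of 50 changed 0.4-fold were found past 2-fold. So were 1.07% of 9455 unchanged genes, a value that leaves out the spread between cells and cultures. Sums that rest on few cells were not covered by this simulation.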

Additional observations from a re-analysis of the deposited data

Results flagged for a closer look

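Barcodes that failed the cell filter held a signal of the same kind. In H3WT 5-Aza, 2217 of 9009 such barcodes (24.6%) had 1% or more of their UMIs from the 6 genes, with a median of 738 UMIs, and in H3R26C 5-Aza 1368 of 4491 (30.5%) had, with a median of 890 UMIs. In DMSO, 1 of 2529 H3WT and 0 of 1813 H3R26C barcodes did. They were singled out because the DMSO libraries nearly lack them and the comparisons above do not use them, apart from the shares with the looser cell filter, which admits part of them. What they hold was not tested.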

How the results depend on the processing

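No paired analysis was possible because the design holds a single library of each kind. The share of sarcomere-rich cells followed the limit on the 6 genes. In H3WT it was 2.30% at 0.5%, 1.35% at 2% and 0.818% at 5%, and in H3R26C 2.98%, 1.64% and 0.643%. It was 8.79% and 7.51% with a looser cell filter (1000 UMIs, 500 genes), 1.39% in H3WT with a stricter one, 1.69% in H3R26C without Acta1 in the sum and 1.20% in H3WT without barcodes under 1% mt- UMIs. The ratio of shares reversed to 0.787 at a limit of 5% and to 0.854 with the looser filter, and was 1.70 without barcodes under 1% mt- UMIs. Under the other settings it was 1.15 to 1.62. The value at 5% includes barcodes under 1% mt- UMIs, 18 in H3WT and 13 in H3R26C from 5% to 10%. The reversal at 5% was not run without them. H3R26C then had more of the cells but also more kept cells, which does not order the shares. The median log2 ratio over the 52 sarcomere genes, those of the rule included, was -0.36 at a limit of 5%, -0.42 to -0.63 under the other 10 of 11 settings, and -0.37 in cells of 5% to 10%. That over the regulators was -0.03 to -0.44 under these 11 settings and -0.49 in cells of 5% to 10%. Genes past 2-fold in H3R26C against H3WT numbered 270 higher and 238 lower with a pseudocount of 5 CPM, 1076 and 948 without a minimum, 204 and 245 with a minimum of 20 CPM, 887 and 966 at a limit of 5%, and 941 and 966 in cells of 2% to 5%. Genes lower than in the other cells numbered 1183 with a pseudocount of 5 CPM, 1049 with a minimum of 20 CPM, 1054 with median of ratios and 2897 at a limit of 5%. A fixed set of 47 of the named genes was run under all 11 settings, and 31 of them were past 2-fold between the genotypes. Of these 31, 30 kept their sign, Dlk1 reversed to 1.15 in cells of 2% to 5%, and 4 came under 2-fold in at least 1 setting. Not all genes named in the text are in this set. Without barcodes under 1% mt- UMIs Myl1, Mybph, Tpm1, Ldb3, Csrp3, Cryab, Smpx, Pvalb, Mb, Fabp3 and Ankrd23 came under 2-fold. Of the other genes of the set Myog, Mylpf, Ttn, Myod1 and Mymk changed sign in at least 1 setting. The causes were not tested.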

Other observations

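Subunits of PRC2, the complex that methylates the lysine next to the mutated arginine of histone H3, were measured in sarcomere-rich and other cells. Of 10 genes 0 were past 2-fold higher and 0 lower in both libraries, beside 6.08% and 17.4% of all genes, and their median log2 ratio was -0.55 in H3WT and -0.43 in H3R26C, beside -0.39 and -0.41 over all genes. Between the genotypes the median log2 ratio was -0.27, beside 0.02 in the other cells, with 0 past 2-fold higher and 1 lower, Ezh1, beside 5.37% and 5.22% of all genes. Ezh1, the catalytic subunit of resting cells, was at 22.9 CPM in the H3WT set and 10.6 CPM in the H3R26C set, and Ezh2, that of dividing cells, made 45.3% and 60.1% of the pair per kilobase of exon. The pair had 68 and 94 UMIs in all, and the intervals of the Ezh2 share of UMIs overlapped (30.7 to 55.2% and 46.8 to 67.6%). The scaffold gene Eed was at 25.3 and 25.2 CPM and Suz12 at 23.5 and 31.2 CPM.

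Of 14 genes of the dystrophin complex and costamere, which tie the sarcomere to the membrane, 7 were past 2-fold higher in the set than in the other cells in both libraries, beside 6.08% of all genes. They included the sarcoglycan gene Sgca (80.5 CPM in H3WT and 73.9 CPM in H3R26C, against 2.12 and 2.69 CPM in the other cells). Between the genotypes the median log2 ratio of the list was 0.03. Of 9 genes of cell cycle exit 4 were past 2-fold higher than in the other cells, beside the same 6.08%, and between the genotypes the median over 10 genes was -0.44, with 1 past 2-fold lower, beside 5.22% of all genes. That gene was Cdkn1c, whose UMIs came from 1 cell in each library.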
